A study of Mus musculus with 127 samples.

Results

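Chromosome 12 of the mouse was followed through 10 serially sliced nuclei. Its members are all 10 kb windows placed on chromosome 12 in the 20 position files (files 0 and 1 of each cell): 53908 of the 1222168 located windows of the series, against 1078727 on the 18 other autosomes. Windows in both files of a cell were counted once per file, and 11247 distinct windows were located in at least 1 cell. That is 96.1% of the 11703 possible windows between 3 Mb, where the assembled sequence begins, and 120030000, the end of the last located window. Chromosome 12, the 14th longest autosome here, made up 4.87% of the autosomal length and received 4.76% of the autosomal windows. The number of cells that shared a window was also like that elsewhere: 456 windows (3.90%) were located in no cell and 133 (1.14%) in all 10, against 3.95% and 1.24% on the other autosomes.

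Mouse chromosomes are telocentric, so the map starts next to the centromere and runs from the centromere-proximal to the distal end. Chromosome 12 is one of the chromosomes that carry a nucleolar organiser, an array of ribosomal RNA genes near the centromere around which a nucleolus forms. The array itself is not assembled, and the first located windows begin after it. Along the arm lie Dnmt3a, a DNA methyltransferase, Mycn and Esrrb, transcription factors of stem cells, the imprinted Dlk1-Dio3 cluster, the Serpina protease inhibitors and, near the distal end, the immunoglobulin heavy chain locus.

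The samples were 122 nuclear profiles from 10 F123 embryonic stem cells (strain CAST x 129, a hybrid line) and 5 controls for which no positions were analysed here. Sequential slices of a single nucleus were amplified as whole genomes and sequenced, and each located window carries a value on the slicing axis, in steps of 0.2 of an unnamed unit. Titles place 4 cells (Cell17, Cell18, Cell19, Cell20) in a set named B16F and 6 (Cell25, Cell26, Cell27, Cell28, Cell38, Cell39) in B18F. All cells share the genotype and untreated culture with LIF, first on feeder cells and then passaged without them, and no marker is available in DNA positions to check the cell type. The cell is the replicate, and since nothing states that the cells came from separate cultures, p-values measure the spread between these nuclei.

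Sequence carried by more than 1 place matters for where a short read is placed. It was measured here in promoters only, not over whole windows, and on chromosome 12 the copied promoters are concentrated between 17 and 24 Mb. The pairs printed here come from that stretch, which also had the best covered bins of the chromosome. Each line gives the 250 bases before a gene start from RefSeq (GRCm38.p6, the assembly that mm10 names), 5′ to 3′, and capitals mark the bases that differ within the pair. Gm9241 (chr12:18735571-18735820, plus strand) and Gm40853 (chr12:19973476-19973725, plus strand) were equal at 241 bases and differed at 9.
Gm9241: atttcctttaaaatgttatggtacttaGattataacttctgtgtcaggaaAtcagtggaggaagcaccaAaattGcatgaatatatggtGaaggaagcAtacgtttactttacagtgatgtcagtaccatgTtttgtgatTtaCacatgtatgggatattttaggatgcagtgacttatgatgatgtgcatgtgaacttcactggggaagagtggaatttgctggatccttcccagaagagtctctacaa
Gm40853: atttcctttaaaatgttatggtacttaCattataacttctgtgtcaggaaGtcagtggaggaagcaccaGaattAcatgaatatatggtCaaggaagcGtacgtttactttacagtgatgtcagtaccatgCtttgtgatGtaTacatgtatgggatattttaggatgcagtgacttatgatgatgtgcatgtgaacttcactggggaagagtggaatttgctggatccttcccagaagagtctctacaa
Gm40847 (chr12:18853705-18853954, plus strand) and Gm40862 (chr12:23634393-23634642, minus strand) were equal at 247 bases (98.8%) and differed at 3, and they lie on opposite strands near the opposite edges of the stretch.
Gm40847: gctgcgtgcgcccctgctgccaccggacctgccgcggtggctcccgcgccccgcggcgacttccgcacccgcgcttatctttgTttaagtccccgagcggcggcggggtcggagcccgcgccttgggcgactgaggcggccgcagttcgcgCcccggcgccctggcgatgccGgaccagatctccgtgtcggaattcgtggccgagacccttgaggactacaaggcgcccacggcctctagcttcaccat
Gm40862: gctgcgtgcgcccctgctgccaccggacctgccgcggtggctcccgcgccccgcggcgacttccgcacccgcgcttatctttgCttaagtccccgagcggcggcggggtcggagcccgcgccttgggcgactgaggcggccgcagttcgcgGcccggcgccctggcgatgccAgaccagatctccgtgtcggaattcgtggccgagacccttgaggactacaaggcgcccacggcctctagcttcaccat
In this stretch 24 of the 73 promoters in the table (32.9%) had at least 50% of their 25-base words in a promoter of another gene. The share was 2.08% on the rest of chromosome 12 (25 of 1204) and 3.83% on the other autosomes (1153 of 30119). The 24 promoters belong to 17 genes, with 13 on the plus strand, the most distal of them at 20614713, and 11 on the minus strand, the most proximal of them at 21759300. The plus-strand copies therefore all precede the minus-strand copies.

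Coverage of chromosome 12 varied between nuclei, and its difference from the other autosomes did not pass the test. Located windows per cell were 5860 in Cell17, 3226 in Cell18, 4392 in Cell19, 3136 in Cell20, 9001 in Cell25, 5976 in Cell26, 5148 in Cell27, 8702 in Cell28, 4036 in Cell38 and 4431 in Cell39. Per possible window, and divided by the density of all other autosomes in the same cell, these counts gave ratios of 0.871, 0.735, 0.837 and 0.800 in the B16F cells. The B18F cells, in the order above, had 1.07, 0.961, 0.852, 1.20, 0.888 and 1.80. The chromosome was below the other autosomes in 7 cells, among them all 4 of B16F, and far above them only in Cell39, where it was the best covered of the 19 autosomes.

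The mean log2 ratio was −0.047 ± 0.375 (SD, n = 10). An exact two-sided sign-flip permutation test over cells gave p = 0.727, and 0.748 after Benjamini-Hochberg adjustment over the 19 autosomes, each tested in the same way. Without Cell39 the mean was −0.15 (sign-flip permutation p = 0.0859, adjusted 0.327). The mean was −0.31 in the B16F cells, where the smallest p that 4 cells allow is 0.125, and 0.13 in the B18F cells. The difference between the sets had an exact permutation p of 0.0476, and of 0.286 after adjustment over 12 measures.

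**Figure D1:**
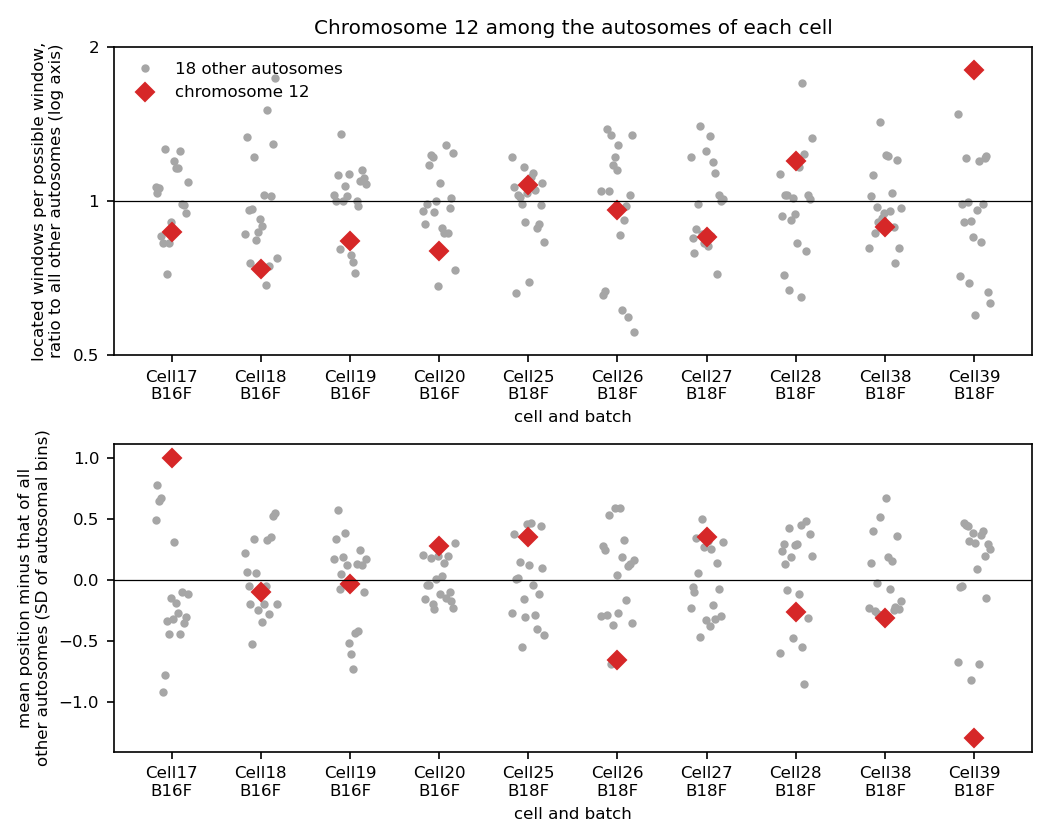
Upper panel: located windows per possible window in each cell, as a ratio to all other autosomes of that cell (log axis); lower panel: mean position minus that of all other autosomes, in SDs of the autosomal 1 Mb bins. Red diamonds are chromosome 12 and grey points the 18 other autosomes; chromosome 12 is outermost in Cell39 in both panels (1.80 and −1.30) and highest in position in Cell17 (1.01).

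Along the chromosome, the 6 highest 1 Mb bins were those from 18 to 24 Mb, and no single bin passed the test. The test compared each bin's windows with the number expected from all autosomes of the cell, over 2404 autosomal bins; 0% of them were higher and 0% lower at an adjusted p under 0.05, so 0 of the 117 chromosome 12 bins were called in either direction. At an unadjusted exact p under 0.05, 5 chromosome 12 bins were higher (4.27%, against 2.79% of all bins) and 16 were lower (13.7%, against 16.4% of all bins). The smallest adjusted p over all bins was 0.0838. With 10 cells the smallest possible sign-flip p is 0.00195. Adjusted over 2404 bins, a bin at that value passes only if many others share it. The absence of called bins therefore does not show that none departs from expectation. The median log2 ratio was −0.19 over chromosome 12 bins and −0.12 over all bins.

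The best covered bins were those starting at 23 Mb (1.54 times expectation, above it in 9 of 10 cells, adjusted p = 0.105), 20 Mb (1.52 times, 10 of 10 cells, sign-flip permutation p = 0.00195, adjusted 0.0838) and 19 Mb (1.48 times, 8 of 10 cells, adjusted p = 0.134). The least covered bin, at 31 Mb, had 0.568 times expectation (below it in 9 of 10 cells, adjusted p = 0.124) and was nearly empty in its lowest cell (log2 −3.16). The bins at 66 Mb, which holds part of the long neural gene Mdga2, and at 55 Mb, which holds Nfkbia, an inhibitor of NF-kappa-B, had 0.601 and 0.641 times expectation. Those at 38 and 57 Mb (0.723 and 0.775 times) were above expectation in 0 of 10 cells (sign-flip permutation p = 0.00195, adjusted 0.0838 for each).

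The bin at 88 Mb (1.17 times) ranked 7 in coverage on the chromosome, counted from the highest, and the bin at 17 Mb (1.15 times) ranked 8. The stretch from 17 to 24 Mb was picked after the values were seen, so it is described without a test. It makes up 5.98% of the chromosome and held 4523 windows. Its density over that of the rest of chromosome 12 was 1.35 in Cell17, 1.75 in Cell18, 2.23 in Cell19, 2.16 in Cell20, 1.36 in Cell25, 0.999 in Cell26, 1.26 in Cell27, 0.958 in Cell28, 1.28 in Cell38 and 2.23 in Cell39. The stretch was above the rest in 8 of 10 cells and in 16 of 20 files, with a mean ratio of 1.56 ± 0.50 (SD, n = 10).

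The near-identical promoters printed above lie in these bins. On the other autosomes, 75 bins in which at least 25% of the promoters had copies had a median log2 coverage of −0.0056, and 49.3% of them were above 0. The 1691 bins set against them, with a lower share of copied promoters, had a median of −0.11, with 32.6% above 0. The remaining bins of the other autosomes were in neither group. How reads with several matches were handled is not given in the sources used here, and the part of such copies in the coverage was not tested.

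**Figure D2:**
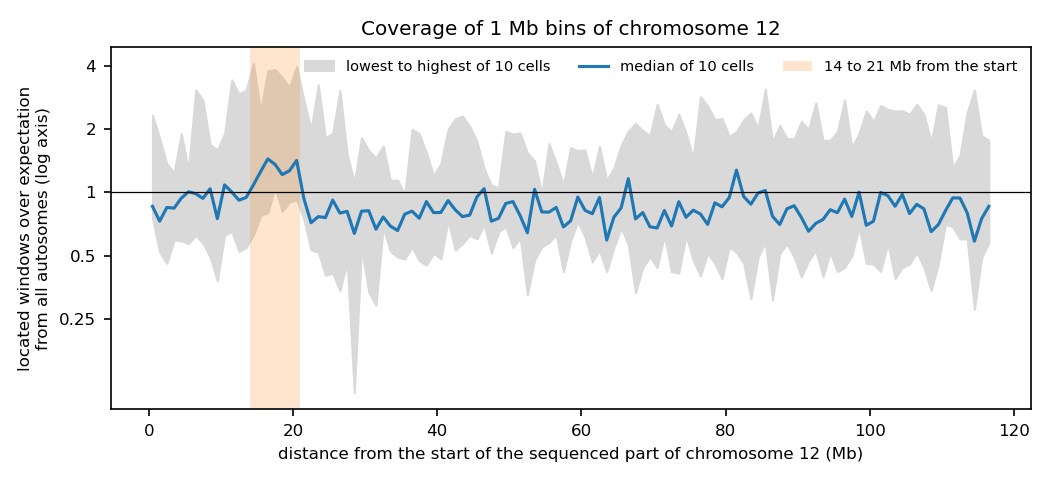
Located windows in 1 Mb bins of chromosome 12 over the number expected from all autosomes of the cell (log axis), against distance from the start of the sequenced part. The line is the median of 10 cells, the grey band runs from the lowest to the highest cell, and the shaded stretch, 17 to 24 Mb on the map, holds the 23 Mb bin with a mean of 1.54.

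The centromere-proximal and distal parts, divided at 61.515 Mb, did not differ in coverage past the threshold, and 1 nucleus stood apart. The proximal part had 3122, 1717, 2557 and 1796 windows in Cell17, Cell18, Cell19 and Cell20, and the distal part 2738, 1509, 1835 and 1340. In each of the 4 cells of B16F the proximal part was the fuller, by ratios of 1.14, 1.14, 1.39 and 1.34. The B18F cells had proximal over distal ratios of 1.03 in Cell25, 1.04 in Cell26, 1.22 in Cell27, 0.511 in Cell28, 0.950 in Cell38 and 0.968 in Cell39.

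Cell28 had 2942 proximal and 5760 distal windows, the most unequal division of the 10. In that nucleus the 5 segments of 10 Mb from 70 Mb on had 1.51, 1.95, 1.38, 1.91 and 1.66 times the density of the other autosomes, and the segment from 30 to 40 Mb had 0.530 times. On the other autosomes the mean log2 ratio was 0.082, against 0.057 on chromosome 12. The difference was −0.025 ± 0.419 (SD, n = 10), positive in 7 of 10 cells (sign-flip permutation p = 0.918, adjusted 0.939). Without Cell28 it was 0.093 (sign-flip permutation p = 0.184). It was 0.25 in B16F and −0.21 in B18F, and the difference between the sets had an exact permutation p of 0.0429, and of 0.286 after adjustment over 12 measures.

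On the slicing axis, chromosome 12 had the mean position farthest from the rest among the 19 autosomes in 2 nuclei. Positions were averaged in 1 Mb bins per file, and the offset of chromosome 12 from all other autosomes was divided by the SD of autosomal bins in the cell. The offsets were 1.01 in Cell17, −0.10 in Cell18, −0.030 in Cell19, 0.28 in Cell20, 0.36 in Cell25, −0.66 in Cell26, 0.36 in Cell27, −0.26 in Cell28, −0.31 in Cell38 and −1.30 in Cell39. Chromosome 12 had the highest mean position of the 19 autosomes in Cell17 (0.452 axis units above the rest) and the lowest in Cell39 (0.382 units below).

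The direction of the axis has no shared meaning between nuclei, so the size of the offset was tested. It was 0.47 ± 0.40 SDs for chromosome 12 and 0.29 ± 0.07 on average for the other autosomes (SD, n = 10). The difference of 0.17 ± 0.36 was positive in 7 of 10 cells (sign-flip permutation p = 0.182, adjusted 0.722). Without Cell39 it was 0.086.

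The path in segments of 10 Mb was specific to the nucleus. In Cell17 all 12 segments lay above the mean of the other autosomes, by 0.59 SDs (60 to 70 Mb) to 1.44 SDs (the first segment). In Cell39 none of the 12 did, and the segment from 70 to 80 Mb was lowest at −2.18 SDs, with the one from 10 to 20 Mb nearest to the rest at −0.38. Cell26 also had 0 of 12 segments above the rest, Cell38 had 1, and Cell20 had 11.

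Other nuclei crossed the mean of the autosomes along the arm. Cell25 climbed from 0.12 SDs at 20 to 30 Mb to 1.21 at 50 to 60 Mb and was at −0.50 in the last segment. Cell28 ran between 0.63 SDs at 20 to 30 Mb and −1.33 at 70 to 80 Mb, the widest span in SDs (1.96), and Cell38 had the narrowest (0.69). Cell18 dipped at 60 to 70 Mb, to −1.09 SDs, between segments at −0.30 and −0.42.

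The segments that lay closest on average over the cells were 30 to 40 Mb and 40 to 50 Mb, 0.18 ± 0.20 SDs apart, and those that lay farthest apart were the first and the last, at 0.76 ± 0.47 SDs (SD, n = 10). The proximal and distal parts as a whole differed by 0.012 SDs in Cell17, 0.28 in Cell18, 0.21 in Cell19, 0.14 in Cell20, 0.36 in Cell25, 0.076 in Cell26, 0.34 in Cell27, 0.76 in Cell28, 0.014 in Cell38 and 0.55 in Cell39. The mean of these distances was 0.27 ± 0.24, against 0.29 ± 0.09 on the other autosomes (difference −0.013 ± 0.224, sign-flip permutation p = 0.861, adjusted 0.965).

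**Figure D3:**
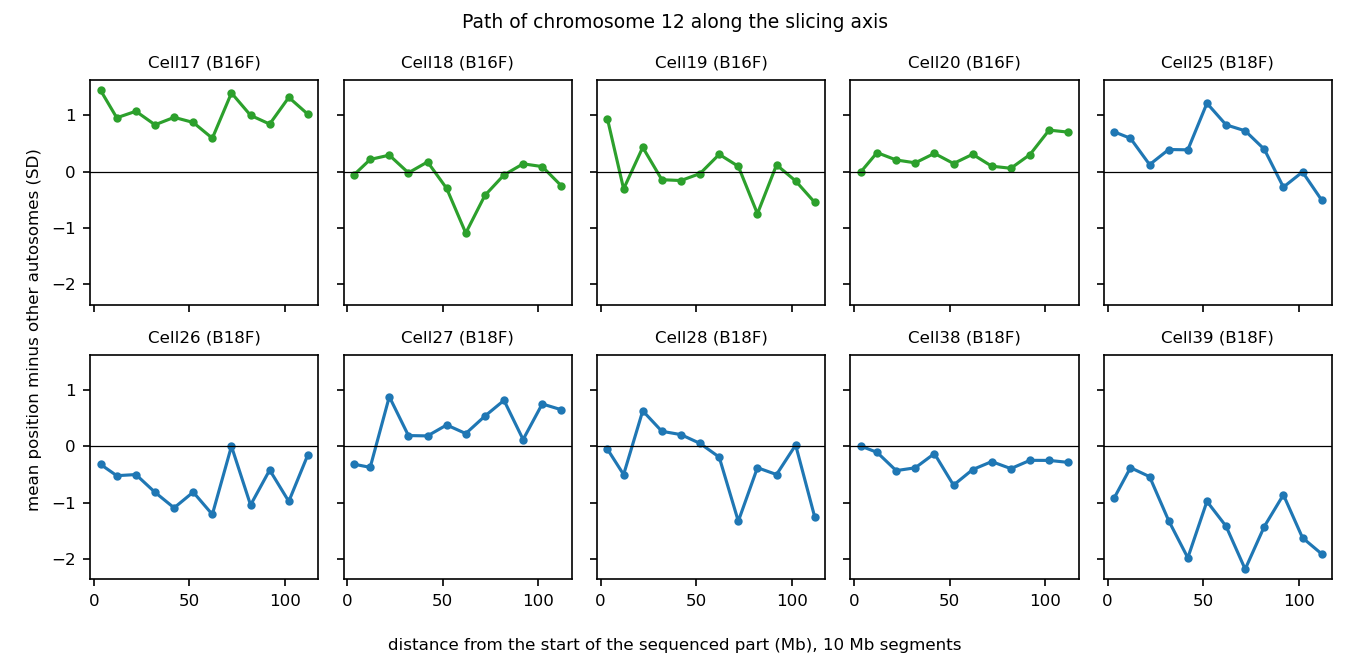
Mean position of chromosome 12 in segments of 10 Mb, minus that of all other autosomes and in SDs of autosomal bins, against distance from the start of the sequenced part; 1 panel per cell, green for B16F and blue for B18F. Cell17 stays above 0 in all 12 segments and Cell39 below 0 in all 12, and Cell28 has the widest span (1.96 SDs).

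Chromosome 12 was spread over nearly all steps of the slicing axis in each nucleus. Steps need not equal slices, since Cell18 had 17 steps and 16 profiles. Windows placed exactly on a step of the axis (63.8% of those of chromosome 12 in Cell28 to 79.1% in Cell27) were assigned to steps counted from the lowest value, and every step held some of the chromosome in every cell except 1 of 17 steps in Cell18. In Cell26, step 1 held 51.3% of the chromosome 12 windows and 28.0% of those of the other autosomes, while step 4 held 9.50% and 29.7%. In Cell17, step 18 held 10.2% against 3.34%.

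Other single autosomes departed from the rest by as much. The share of windows that would have to change step to match the rest was 24.1% for chromosome 12 in Cell17, 12.2% in Cell18, 17% in Cell19, 11% in Cell20 and 12.5% in Cell25. It was 25.2% in Cell26, 8.07% in Cell27, 7.42% in Cell28, 6.18% in Cell38 and 22.7% in Cell39. Among the 19 autosomes chromosome 12 ranked 4th in Cell17 and Cell26 and 2nd in Cell39, counted from the largest share. It ranked 14th in Cell18, 15th in Cell27, 18th in Cell28 and last in Cell25, where the median of the others was 20.9%.

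Cell39 differed from the other nuclei in its overall shape, since its top step held 65.4% of the windows of the other autosomes. Chromosome 12 had 50.1% of its windows there and 11.1% in step 1, against 3.05% for the other autosomes. Per possible window, its density was 5.72 times that of the other autosomes in step 1 and between 2.66 and 4.62 times in steps 2 to 9. In steps 10 and 11, which held most windows of that nucleus, it was 1.01 and 1.20 times. The excess of chromosome 12 in Cell39 was thus larger in the sparsely filled lower steps than in the 2 full ones.

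**Figure D4:**
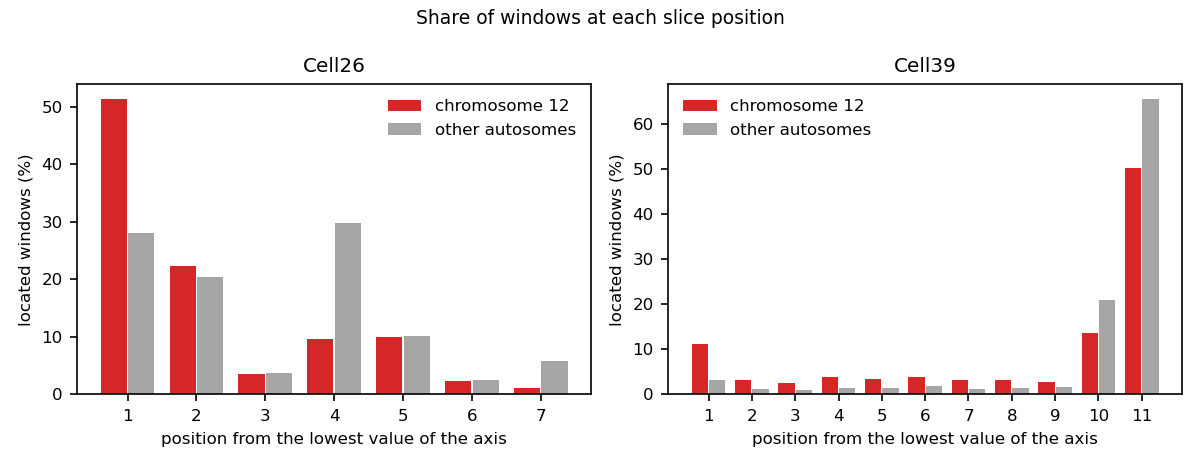
Share of the windows placed on each step of the slicing axis (in percent, counted from the lowest value) in Cell26 and Cell39, for chromosome 12 (red) and all other autosomes (grey). In Cell26 chromosome 12 has 51.3% in step 1, and in Cell39 it has 11.1% in step 1 where the others have 3.05%.

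The extent of chromosome 12 along the axis was close to that of the other autosomes within the spread between cells. The SD of its 1 Mb bins over both files was 0.328, 0.425, 0.322 and 0.329 axis units in the B16F cells. It was 0.298, 0.151, 0.141, 0.154, 0.173 and 0.409 in the B18F cells in the order above. On the log2 scale, averaged over the files, it was 0.15 ± 0.37 above the mean of the other autosomes (SD, n = 10, positive in 6 of 10 cells, sign-flip permutation p = 0.225, adjusted 0.474).

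The step between bins 1 Mb apart was 0.17 ± 0.41 larger on the log2 scale (7 of 10 cells, sign-flip permutation p = 0.203, adjusted 0.551). Cell39 contributed most to both, with 1.03 for the spread and 1.20 for the step, and without it the means were 0.056 and 0.057. A bin with fewer windows has a less precise mean, and the part of this in the spread and the step was not tested. With 1 window per bin, the differences were 0.10 for the spread and 0.17 for the step.

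Nearby bins of chromosome 12 lay closer together than bins of different chromosomes. The distance at a separation of 1 Mb was 0.743 ± 0.119 times that from chromosome 12 to the other autosomes, below 1 in 10 of 10 cells. The ratio was below 1 in 10 of 10 cells at 5 Mb (0.864 ± 0.112) and 20 Mb (0.887 ± 0.128), in 8 at 2 Mb (0.848 ± 0.130) and in 7 at 10 Mb (0.927 ± 0.121). It was below 1 in 6 cells at 50 Mb (0.961 ± 0.167) and at 100 Mb (0.930 ± 0.226). Set against bins 1 Mb apart on the other autosomes, the distance on chromosome 12 was 1.14 ± 0.35 times as large, and smaller in 3 of 10 cells (SD, n = 10). These ratios were not tested.

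Over all separations, the log2 ratio of the distance within chromosome 12 to that from it to other autosomes was −0.13 ± 0.23, against −0.16 ± 0.11 for the other autosomes. It was lowest in Cell17 (−0.68), the least of the 19 autosomes, and above 0 in 4 of 10 cells, up to 0.080 in Cell20. The difference was 0.026 ± 0.208, positive in 6 of 10 cells (sign-flip permutation p = 0.709, adjusted 0.842).

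How similar the order of chromosome 12 was in the 2 files of a nucleus varied between cells, with correlations near 0 in Cell20 and Cell38. What the files stand for is not given in the sources used here. Over the 1 Mb bins located in both files (96 in Cell18 to 118 in Cell25, Cell27 and Cell28), the Spearman correlation was 0.745 in Cell25, 0.729 in Cell39, 0.728 in Cell28 and 0.721 in Cell26. It was 0.527 in Cell19, 0.430 in Cell27, 0.294 in Cell18 and 0.227 in Cell17. In Cell38 it was −0.031, and in Cell20 it was nearly 0 (−4.3e-06). Bins of a chromosome share library and slices, so these values are descriptions. File 0 held the fewest chromosome 12 windows in Cell20 (701) and Cell38 (848). Cell19, with 955, had a correlation of 0.527, and the part of the number of windows was not tested.

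The correlation was lower when windows listed in both files were left out. Without them, the mean fell from 0.437 ± 0.303 to 0.216 ± 0.191 (SD, n = 10), with a range from −0.078 in Cell38 to 0.522 in Cell39. Leaving them out also left fewer windows, and on average 101 bins per cell instead of 113. The part of each in the fall was not tested. The separation of the same bin in files 0 and 1, over that to other autosomes across files, had a log2 ratio of −0.65 ± 0.45 on chromosome 12 and −0.64 ± 0.34 elsewhere (difference −0.0031 ± 0.197, sign-flip permutation p = 0.955, adjusted 0.955).

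In Cell39, the sharing of windows over expectation and the share of identical positions were lower on chromosome 12 than on other autosomes. The bins of its 2 files lay as close (log2 ratio −1.05 on chromosome 12 and −1.01 elsewhere). Of the windows listed in both of its files, 42.7% had identical positions (within 1e-06 axis units) on chromosome 12 and 69.6% on the other autosomes. The number listed in both was 1.41 times that expected from independent files, the lowest ratio of its 19 autosomes. In Cell39, steps 10 and 11 held 13.5% and 50.1% of the chromosome 12 windows on a step. They held 20.9% and 65.4% of those of the other autosomes, and chromosome 12 had 1.80 times their window density. The part of either in these differences was not tested. In the other cells the share of identical positions ran from 18.7% in Cell38 (12.8% elsewhere) to 68.5% in Cell26 (60.1% elsewhere), and its mean over all 10 cells was 49.4% ± 15.2, against 49.3% ± 15.8 elsewhere.

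Sharing of windows over expectation was 1.56 ± 0.36 on chromosome 12. On the log2 scale it was 0.045 ± 0.192 lower than elsewhere (difference −0.045, sign-flip permutation p = 0.570, adjusted 0.651). File 1 held 60.7% ± 14 of the chromosome 12 windows, from 42.7% in Cell26 to 79% in Cell38, against 60.9% ± 12 elsewhere (sign-flip permutation p = 0.785, adjusted 0.878).

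**Figure D5:**
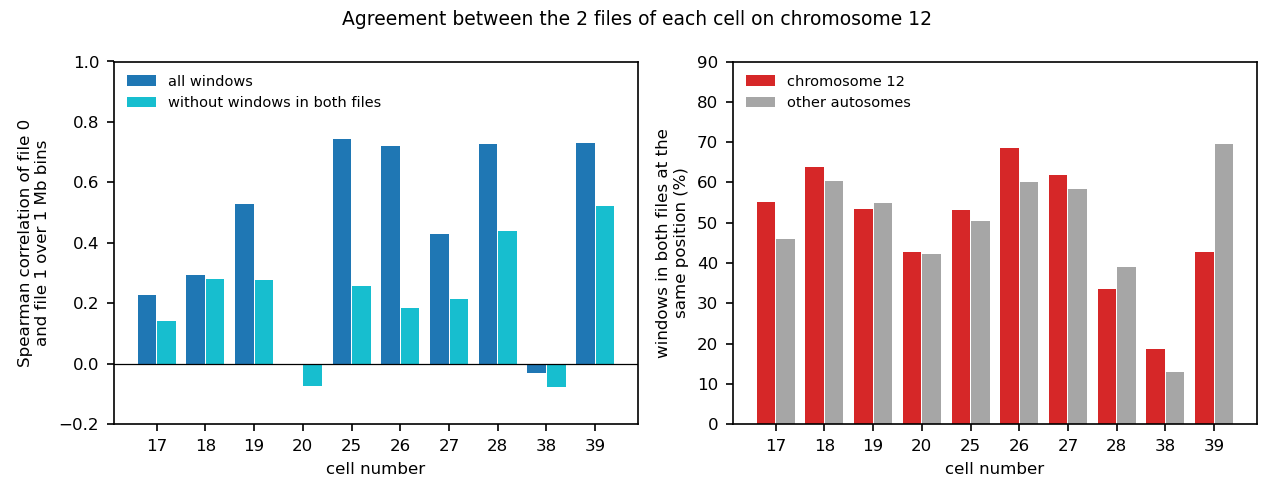
Left: Spearman correlation of the positions of 1 Mb bins of chromosome 12 between the files of each cell, with all windows and without those listed in both files; right: percent of windows listed in both files that have the same position, on chromosome 12 and on all other autosomes. The correlation is lowest in Cell38 (−0.031 with all windows), and Cell39 has 42.7% identical positions on chromosome 12 against 69.6% elsewhere.

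Windows listed in 1 file only ran in blocks along the chromosome. In Cell18, 2702 such windows fell into 141 runs of the same file, and the longest, chr12:98700001-106710000 in file 1, spanned 8.01 Mb with 179 windows. It covers the Serpina genes and Dicer1, the RNase of microRNA maturation. In Cell28 the longest run spanned 0.60 Mb, and Cell27 had the most runs (1274). Neighbouring single-file windows came from the same file in 94.8% of cases in Cell18, where 60.7% follows from the file sizes, and in 62.5% in Cell27, where 50.2% follows. The other autosomes had 93.3% and 65.1% in those cells.

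The distance from the organiser end of chromosome 12 did not differ past the threshold between the corresponding ends of the other organiser chromosomes and those of the remaining autosomes. Its bins from 3 to 13 Mb lay, averaged over the cells, 0.320 ± 0.164 axis units from those of chromosomes 15, 16, 18 and 19 and 0.324 ± 0.165 units from those of the remaining autosomes. The log2 ratio of the distances was −0.02 in Cell17, 0.01 in Cell18, −0.15 in Cell19, −0.14 in Cell20, 0.35 in Cell25, −0.21 in Cell26, 0.09 in Cell27, 0.10 in Cell28, −0.04 in Cell38 and −0.16 in Cell39. The organiser ends were nearer in 6 of 10 cells, and the mean was −0.017 ± 0.168 (SD, n = 10, sign-flip permutation p = 0.768).

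Whether chromosome 12 lay near the middle or the edges of the sliced range was measured by ranking the distance of each bin from the midpoint of the cell's axis, from 0 (middle) to 100 (edge). The mean percentile of chromosome 12 was 51.4 ± 11.4 (SD, n = 10), from 24.3 in Cell39 to 66.7 in Cell26. The proximal part had 50.6 ± 11.1 and the distal part 52.3 ± 13. The difference between these parts, set against that on the other autosomes, was −1.94 ± 11.2 points (5 of 10 cells positive, sign-flip permutation p = 0.770, adjusted 0.918). Cell28 alone had −31.1 points, with 44.7 in the proximal and 67.0 in the distal part, and without it the difference was 1.30.

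Single bins were tested against a percentile of 50. Over the 2411 autosomal bins located in all 10 cells, 4.94% had an unadjusted exact p under 0.05, and on chromosome 12 it was 4 of 117 (3.42%), below that background. The smallest adjusted p over all bins was 0.785. The bin nearest to the middle was 61 Mb, with 35.5 ± 25.9, which holds Lrfn5, a neural adhesion gene (SD, n = 10).

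Genes of chromosome 12 take the position of their 1 Mb bin. Esrrb (chr12:86361117-86521628) was found directly by its own windows in 10 of 10 cells, with 104 windows, and its bin had a percentile of 63.2 ± 21.7 (SD, n = 10), from 28.4 in Cell39 to 91.4 in Cell26. Mycn (chr12:12936093-12941836), a short gene, had its own windows in 3 cells, and its bin had 61.5 ± 21.8, from 33.9 in Cell38 to 95.6 in Cell28. The bin of Dnmt3a, whose gene windows were located in 10 cells, had 45.4 ± 24.9, that of Id2, an inhibitor of differentiation factors, 44.7 ± 21.7, and that of Dicer1 58.3 ± 23.1. The spread between nuclei, which is not the precision of a mean, exceeded the differences among these genes. The 7 bins of the stem cell list had a median of 56.8, against 50.5 over all chromosome 12 bins.

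The imprinted Dlk1-Dio3 cluster occupies the bins at 109 and 110 Mb. Begain, Dlk1, which encodes a Notch-like ligand, and Meg3, a long non-coding RNA, share a bin with a percentile of 43.1 ± 16 (SD, n = 10), from 14.9 in Cell39 to 66.2 in Cell26. Windows of Dlk1 itself were located in 3 cells and those of Meg3 in 6. The bin of Dio3, a deiodinase of thyroid hormone, had 49.9 ± 25.5. Of the 169 mature microRNAs that RefSeq places on chromosome 12, 112 lie in the 109 Mb bin, with 102 distinct seeds.

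Long neural genes span many windows. Nrxn3, a synaptic adhesion gene, had 719 located windows, Immp2l 394, Rgs6 338 and Dgkb, a diacylglycerol kinase, 252, each in 10 of 10 cells. The 10 genes of the list were located in 9 or 10 cells, and their bins had a median percentile of 47.8, from 35.5 (Lrfn5) to 63.4 (Prkd1). Among 17 developmental transcription factors, the bin of Etv1 had 37.4 ± 20.6, the lowest of the list's 13 bins. Those of Six6 and Bcl11b had 45.5 ± 28.5 and 53.5 ± 25. The 13 bins ran up to 70.7, with a median of 51.1.

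Widely expressed and signal-responsive genes had bins with medians of 59.4 and 56.8. Nfkbia had 70.1 ± 21.6, Psma3, a proteasome subunit, 65.1 ± 24.9, Batf, a lymphoid transcription factor, 64.5 ± 25.8, and Eif2s1, a translation initiation factor, 63.3 ± 23.2 (SD, n = 10). Esr2, an oestrogen receptor, had 56.8 ± 28.3, Ahr, the dioxin receptor, 52.8 ± 17.5, Dync1h1, a dynein heavy chain, 49.9 ± 25.5, and Eif5 48.4 ± 22.3. In each of them the SD between nuclei was larger than the distance of the mean from 50. That SD describes single nuclei and not the precision of the mean. The Nfkbia bin had an unadjusted sign-flip permutation p of 0.0215 (adjusted 0.878).

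The gene families lie distal. The 23 Serpina genes share the bins at 103 and 104 Mb, with percentiles of 43.2 ± 22.9 (Serpina10 and Serpina11) and 58.3 ± 23.1 (Serpina12 and Serpina3a). The 215 segments of the immunoglobulin heavy chain locus lie in 4 bins from 113 Mb on, with percentiles from 41.1, the bin of the constant region genes Igha and Ighd, to 57.8. Igha had its own windows in 7 cells and Ighd in 6.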

How the data were processed

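Nuclear profiles of 10 mouse embryonic stem cells were sequenced after whole-genome amplification, per the labels' protocols. Trim Galore 0.6.4, Bowtie2 2.3.5, Picard and mm10 are named in the submitters' processing notes. Each of the 20 deposited files lists 10 kb windows with a value along the axis of slicing, per the file headers. The authors gave this other unit no name. The making of a window's position and the handling of reads with several matches were not analysed here, since the sources used do not give them. No read counts are present, so depth is unknown and the number of windows (3136 to 9001 per cell on chromosome 12) limits precision only indirectly.

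Windows from 3 Mb on were averaged in 1 Mb bins per file (Python 3.11.15, numpy 2.4.6, pandas 2.3.3). Each measure gave 1 value per cell for each of the 19 autosomes, minus the mean of the 18 others (for coverage, the others pooled). Exact two-sided sign-flip tests used all 1024 sign patterns (the smallest p is 0.00195 with 10 cells, 0.0312 with 6 and 0.125 with 4), with Benjamini-Hochberg adjustment over 19 and a threshold of 0.05. Single bins were tested likewise and adjusted over all autosomal bins, with 0.5 windows added to count and expectation. The code was tested on these data with positions shuffled within each file, and with positions shifted or windows removed on chromosome 12.

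Promoters, genes and microRNAs come from RefSeq tables of GRCm38.p6. A promoter counted as copied at 50% of its 25-base words. Per list, the genes in the most and in the fewest files' bins were named, besides Esrrb, Mycn, Dlk1 and Meg3; Lrfn5, Nrxn3, Prkd1 and Mdga2 were chosen after their values were seen, as was the stretch from 17 to 24 Mb. The chromosome, measures and lists were chosen with earlier results of these data known. The 5 controls were not used, and some genes that the rule names are not reported here.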

Additional observations from a re-analysis of the deposited data

Results flagged for a closer look

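Cell28 was far from the other 9 cells in 2 measures of chromosome 12. Its log2 ratio of proximal to distal coverage, minus that of the other autosomes, was −1.09, and its difference in midpoint percentile between these parts was −31.1 points from that of the other autosomes. Cell39 was far from the rest in 3: the spread along the axis (1.03 above the other autosomes on the log2 scale), the step between neighbouring bins (1.20) and the windows in both files over expectation (−0.52). Of 12 measures searched for such a cell, chance gives a flag in about 1 of 20. Coverage of chromosome 12 differed between the B18F and the B16F cells by 0.43 on the log2 scale, and proximal over distal coverage by −0.46. Both had exact permutation p-values under 0.05 (0.0476 and 0.0429), and both adjusted values over 12 measures were 0.286. The sets also differ in cells and libraries, which cannot be told apart.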

How the results depend on the processing

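In 14 results with 249 alternatives, no result passed the threshold under any (after adjustment, where one was made). Of these, 209 were unchanged and 40 turned the direction. For the 2 single-bin results, with 11 alternatives each, unchanged means the same number of called bins, which has no direction. In B16F alone the smallest possible p is 0.125, so no result could pass there. Turned differences from the other autosomes were, with 250 kb bins, at least 5 windows per bin, 1 window per bin, file 1 alone and B18F alone, 0.014, 0.025, 0.068, 0.061 and 0.024 for the displacement between proximal and distal parts. The distance between files turned with the median position (0.085), 1 window per bin (0.073), outermost positions left out (0.041), shared windows left out (0.0056), the 4 autosomes nearest in length (0.040) and B16F alone (0.088). The distance within over that to other autosomes turned without outermost positions (−0.0049), without shared windows (−0.0036) and in B16F (−1.3e-05). The organiser ends gave 0.046 without outermost positions, 0.045 in file 1 and 0.022 in B18F. The proximal over distal coverage was 0.042 in file 1 and 0.25 in B16F, the share of file 1 was 1.29 points against the 4 nearest autosomes and 0.58 in B16F, the coverage was 0.13 in B18F, and the percentile difference was 1.83 with 1 window per bin. The cause was not tested.

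Leaving out each cell in turn gave −0.15 to −0.0031 for coverage, −0.069 to 0.093 for proximal over distal coverage, −0.060 to 0.021 for the displacement between these parts, −0.033 to 0.028 for the distance between files, −0.0038 to 0.072 for the distance within, −0.058 to 0.0045 for the organiser ends, −3.21 to 1.30 for the percentile difference, −0.79 to 0.35 points for file 1 and −0.075 to 0.0076 for shared windows. The displacement of the mean (0.059 to 0.24), spread (0.056 to 0.20) and step (0.057 to 0.23) stayed positive throughout. Without 17 to 24 Mb, an alternative chosen after seeing the data, coverage was −0.094 and proximal over distal coverage −0.12. Each value is a difference within a cell. The cells were not paired with each other, because no replicate numbers in the labels link them. Depth is unknown, and the number of nuclei limits the precision.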
